A study of Equus caballus with 32 samples.

Results

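Translation factors are the proteins that start and extend protein chains on the ribosome, and the level of their transcripts was read in blood of 32 mares of the Welsh Pony breed. The measured set is every gene whose name on the array begins with EIF and a digit from 1 to 6 (initiation) or with EEF and 1 or 2 (elongation), without the EIF2AK kinases. It holds 44 genes of the 15078 gene names on the array, read by 82 probes, and a gene with several probes was represented by the brightest. Blood was drawn 30 days after the foals were weaned. The labels give the weaning as brutal for 16 mares and progressive for 16, without a description of either procedure or an age, and 1 single-colour array was made of each mare. The mares are separate animals, and the 32 arrays lay on 4 slides with 4 mares of each group on each.

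Values are log2 signals relative to the 75th percentile of the mare's own array, so that 0 is the signal of that percentile and a difference of 1 is a doubling. The brightness of a probe depends on its sequence as well as on its transcript, so a probe's level was set only against the same probe in other mares. That percentile lay between 339.5 and 646 intensity units, and 53.0 to 66.0% of spots stood well above background. Markers of blood cells were present: 17 of 23 listed neutrophil genes, 19 of 20 T cell genes and 8 of 16 erythroid genes were measured. One array, progressive 16, stood apart, with 851 of the 2483 spots that the scanner software marked as outliers. It also had the highest neutrophil score and the lowest T cell score of all mares.

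Initiation begins when the factor EIF2 brings the initiator tRNA to the small ribosomal subunit, where the large EIF3 complex acts as a scaffold. The EIF4 group binds the cap at the 5′ end of the messenger RNA, unwinds the leader and draws the ribosome to it. EIF1 and EIF5 watch over the choice of the start codon, EIF5B joins the large subunit, and the EEF1 and EEF2 proteins then carry tRNAs in and move the ribosome along. In whole blood, fewer cells of a type and less RNA per cell cannot be told apart.

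The array probes are stretches of 60 bases. Of 9 of them 30 bases are printed, since the results turn on whether close relatives, or separate stretches of a gene, were read apart. The first group is the cap-binding protein EIF4E with its relatives, the inhibitor that binds EIF4E (EIF4EBP1) and EIF3G. The second group is EIF5, whose probes did not move together. Capitals mark bases that another probe of the same gene also holds, and the files give the position as that of the probe's first base in its transcript.
EIF4E: tcccatgcagacacagctactaagagcggc
EIF4E1B: tatgccctgttcaaggatggcatccagccc
EIF4E2: aggatgatgcaaataaaaatggtggcaagt
EIF4E3: TATGAACTTCTGCCCCACATATCTTTTAAA
EIF4EBP1: agatacctccatgtgcctccattcatgcag
EIF3G: tgaactgccaggaggaggaggacccgatga
EIF5 at base 3558: ccacataagaattttattcacagaggctat
EIF5 at base 1356: aaagttgaagctgtgaagtctgacaacaag
EIF5 at base 1296: gaagatgatgatgaagacgagaatattgag
The probe of EIF4E shared at most 7 bases in a row with the probe of EIF4E2 and 6 with those of EIF4E1B and EIF4E3. No brightest probe of a factor shared 20 bases in a row with a probe of another name. Separate probes of 1 gene share as few, such as 6 between those of EIF3H. The comparison of probes therefore cannot show whether a probe also bound the transcript of a relative, and that was not tested.

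A gene was tested if its probe was well above background on 8 or more of the 16 arrays of either group. This held for 43 of the 44 genes, and 42 were so on all 32 arrays. The one left out was EEF1A2, the form of elongation factor 1 alpha typical of muscle and nerve, which stood well above background on 1 array. EIF4ENIF1, which carries EIF4E into the nucleus, did so on 26 arrays.

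The comparison of the groups asked whether the kind of weaning left a difference in these transcripts 30 days later. None of the 43 factors passed the threshold, and the smallest adjusted p among them was 0.997 (limma, Benjamini-Hochberg over all 9397 genes tested). Across all genes the share called was 0% as well. At an unadjusted p under 0.05, limma took 0 of the 43 factors and 246 of 9397 genes, or 2.62%. After progressive weaning 27 factors were lower and 16 higher, with a median difference of -0.0245 on the log2 scale, while 58.3% of all genes were lower, with a median of -0.0203. The groups overlapped for every factor. The 95% intervals had a median half-width of 0.17, and 42 of 43 lay between -0.5 and 0.5 on the log2 scale.

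**Figure D1:**
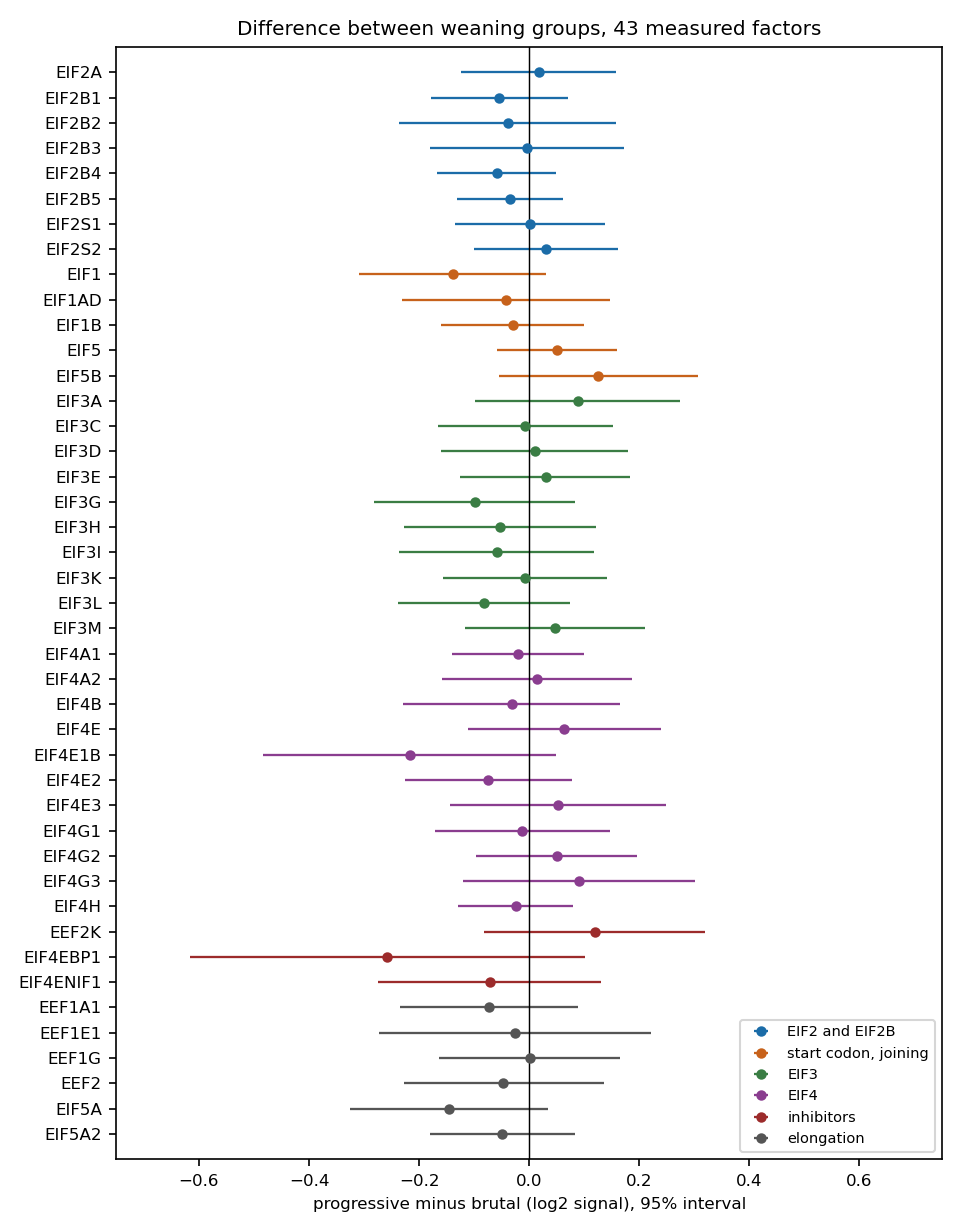
Difference between the groups (horizontal axis, progressive minus brutal, log2 signal) for each of the 43 measured factors, coloured by role, with bars for limma's 95% interval (16 mares a group). Every interval crosses 0, and that of EIF4EBP1 is the widest, with a half-width of 0.359.

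In the group of EIF2 and its exchange factor EIF2B, 5 of 8 members were lower after progressive weaning (median -0.0197). EIF2B4, a regulatory subunit of the exchange factor, had the smallest p of this group. It ran from 1.82 over a median of 2.10 to 2.35 after brutal weaning and from 1.80 over 2.05 to 2.26 after progressive weaning. The ranges almost coincided, and the difference was -0.059 with an SE of 0.053. EIF2S1 is the EIF2 subunit whose phosphorylation slows initiation under stress. It ran from 2.07 over 2.32 to 2.77 after brutal and from 2.16 over 2.28 to 2.81 after progressive weaning, with the highest value in the mare progressive 2. Its difference was 0.002 with an SE of 0.067. EIF2A, a protein that can deliver initiator tRNA by another route, ran from 0.56 over 0.82 to 1.12 and from 0.44 over 0.90 to 1.24. EIF2B3, which belongs to the catalytic part of the exchange factor, ran from 0.48 over 0.98 to 1.50 and from 0.64 over 0.92 to 1.33. In both genes the progressive values lay among the brutal ones or just beside them.

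The list for start codon choice and subunit joining held 5 genes by name, EIF1, EIF1AD, EIF1B, EIF5 and EIF5B. Of these 3 were lower and 2 higher. EIF1, which keeps the ribosome from starting at a wrong codon, had the smallest unadjusted p of all 43 factors, 0.106 by limma. It ran from 6.25 over 6.69 to 7.05 after brutal weaning and from 6.20 over 6.55 to 6.97 after progressive weaning. The difference was -0.14 with an SE of 0.084, and it was not alike over the slides: 0.064 and 0.034 on slides 1 and 2, and -0.34 and -0.314 on slides 3 and 4. Its close relative EIF1B ran from 2.58 over 2.83 to 3.24 and from 2.64 over 2.83 to 3.20, with the same median in both groups. EIF5B, which joins the large subunit, had the highest positive difference of the 43 factors, 0.125 with an SE of 0.089, and was higher after progressive weaning on all 4 slides. Its levels ran from -0.55 over 0.09 to 0.50 and from -0.26 over 0.17 to 0.77, so most mares of the groups overlapped. EIF5B is named after its values were seen.

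Of the 10 EIF3 subunits 6 were lower and 4 higher, with differences between -0.0995 and 0.0876. EIF3G, an RNA-binding subunit, had the smallest p of them. It ran from 3.05 over 3.58 to 3.98 after brutal and from 2.99 over 3.48 to 3.81 after progressive weaning. The lowest value was that of progressive 16, and the difference was -0.099 with an SE of 0.090.

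The EIF4 group had 6 lower and 5 higher members of 11. EIF4E, the cap-binding protein itself, ran from -1.28 over -0.82 to -0.49 after brutal and from -1.19 over -0.88 to -0.39 after progressive weaning. EIF4E1B, a relative best known from egg cells, ran from -4.48 over -3.52 to -3.03 and from -4.63 over -3.81 to -3.08. Its difference of -0.217, with an SE of 0.131, had the same sign on all 4 slides (unadjusted p = 0.107 by limma), and the groups overlapped over nearly their whole range. EIF4E3, another cap-binding relative, ran from -1.84 over -1.37 to -0.92 and from -1.76 over -1.37 to -0.73. EIF4G1, the scaffold that ties the cap to EIF3, ran from -0.62 over -0.15 to 0.03 and from -0.57 over -0.28 to 0.13. EIF4G3, its relative, ran from 0.55 over 1.20 to 1.53 and from 0.47 over 1.30 to 1.60. In none of these genes did a mare of one group lie far outside the range of the other.

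The inhibitors and regulators held the factor that varied most. EIF4EBP1, which binds EIF4E and blocks its access to EIF4G until mTOR phosphorylates it, ran from 1.78 over 2.55 to 3.75 after brutal and from 1.29 over 2.25 to 3.25 after progressive weaning. The top value was brutal 14 and the lowest progressive 1. The difference of -0.258, with an SE of 0.177, was the lowest of the 43 factors and had an unadjusted p of 0.154 by limma. It was -0.127, 0.118, -0.31 and -0.714 on slides 1 to 4. EEF2K, the kinase that slows elongation by phosphorylating EEF2, ran from -3.23 over -2.87 to -2.44 and from -3.45 over -2.73 to -2.12. Its difference was 0.119 with an SE of 0.099.

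Of the 6 measured genes listed under elongation, EEF1E1 by its name only, 5 were lower and 1 higher. EIF5A, the carrier of the amino acid hypusine that helps ribosomes through difficult stretches, ran from -0.34 over 0.16 to 0.74 after brutal and from -0.31 over 0.09 to 0.50 after progressive weaning. Its difference of -0.145, with an SE of 0.088, was of like size on the slides, between -0.106 and -0.165 (unadjusted p = 0.109 by limma). EEF1A1, which brings tRNAs to the ribosome, ran from 8.54 over 8.74 to 9.17 and from 8.31 over 8.66 to 9.18. EEF2, which moves the ribosome forward, ran from 5.01 over 5.26 to 5.78 and from 4.91 over 5.20 to 5.76. EEF1E1, a partner of the tRNA synthetase complex, ran from -2.45 over -1.89 to -0.49 and from -2.21 over -1.84 to -1.32, and the high value of -0.49 came from brutal 9. EEF1A2, well above background on 1 array, was not compared.

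**Figure D2:**
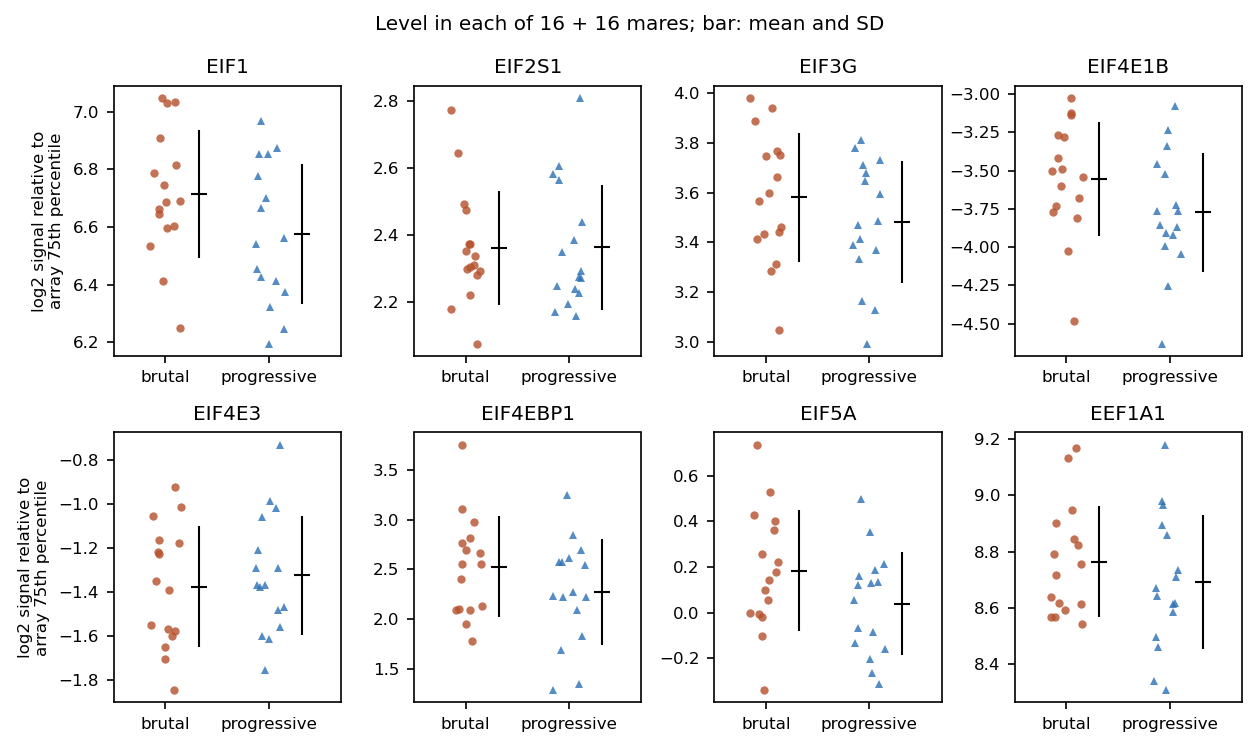
Level of 8 factors (vertical axes, log2 signal relative to the array's 75th percentile, a separate scale in each panel) in 16 mares after brutal (circles) and 16 after progressive weaning (triangles), with the mean and SD beside the points. The groups overlap in every panel, and EIF4EBP1 spreads from 1.29 to 3.75.

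Most factors differed little between mares. The median SD over the 32 mares was 0.23 for the 43 factors and 0.297 for all 9397 genes, and 40 of the 43 lay below the latter. The factors and all genes were not matched for signal level here. A mean level above 1 was reached by 27 of the 43 factors, against 2447 of 9378 genes outside the T cell markers. The part of brightness in the lower SD was not tested. EIF2B5, the catalytic subunit of the exchange factor, was the steadiest with an SD of 0.109. The 3 factors above the median of all genes were EIF4EBP1 at 0.527, EIF4E1B at 0.390 and EEF1E1 at 0.345, and EIF4G3 followed at 0.295. The mares that set these extremes were brutal 14 and progressive 1 for EIF4EBP1 and brutal 9 for EEF1E1. The spread of EEF1E1 depended on the probe. Its probes at bases 460, 416 and 480, which overlap the brightest, had SDs of 0.212, 0.223 and 0.428.

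The spread between mares was then set beside the blood's make-up. A score was formed for neutrophils, T cells and erythroid cells as the mean z value of the measured marker genes, and a score of the 74 cytosolic ribosomal proteins was added after the data were seen. Each tested gene was correlated with each of the 4 scores over the 32 mares. The permutation test of 100000 resamples was two-sided and adjusted over all genes for each score. The scores were related to each other. That of the ribosomal proteins had r = 0.545 with the T cell score and 0.455 with the erythroid score. Between the T cell and neutrophil scores r was -0.37. Calls of a factor with several scores are therefore not separate results.

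Of the factors, 5 correlated positively with the neutrophil score past the threshold, EIF4E1B, EIF4EBP1, EIF4E3, EIF1 and EIF2B2, and 0 negatively. These 5 of 43 stand against 15.4% of all genes with a positive call, and the 0 against 13.6% with a negative one. EIF4E1B had Pearson's r = 0.64 and Spearman's rho = 0.651 (permutation p = 8e-05 and 0.00012, adjusted p = 0.000869 and 0.00134). Without the 2 mares farthest from the median of the score r was 0.583, and on slides 1 to 4 it was 0.753, 0.831, 0.358 and 0.137. EIF4E1B was read by 1 probe of low signal, so no second probe could be set beside it. Its mean was -3.56 after brutal and -3.77 after progressive weaning, though it stood well above background on all 32 arrays. EIF4E3 had r = 0.53 and rho = 0.58 (permutation p = 0.00201 and 0.00073, adjusted p = 0.011 and 0.00536). It kept r = 0.54 without the 2 farthest mares and was positive on all slides, at 0.985, 0.549, 0.367 and 0.412.

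EIF4EBP1 had r = 0.552 and rho = 0.453 with the neutrophil score (permutation p = 0.00111 and 0.0102, adjusted p = 0.00686 and 0.0389). The relation rested mainly on slides 1 and 4, with r of 0.717 and 0.81, against 0.117 and -0.12 on slides 2 and 3, and r was 0.376 without the 2 farthest mares. EIF1 had r = 0.517 and rho = 0.417 (permutation p = 0.00244 and 0.0183, adjusted p = 0.0127 and 0.0606), and r was 0.429 without the 2 farthest mares. On the slides it was 0.793, -0.015, 0.305 and 0.612. EIF2B2, a subunit of the exchange factor, had r = 0.444 and rho = 0.412 (adjusted permutation p = 0.0402 and 0.0645), and was called under 2 of the 5 scalings. EIF1, EIF4E3 and EIF4EBP1 were called under all 5. EIF4E1B was called under 4 of the 5, and its lowest r among them was 0.402. The neutrophil score itself moved with the monocyte score (r = 0.802), so the relation cannot be given to one of these cells.

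The lowest correlations with the neutrophil score were those of EIF1B (r = -0.413), EIF4E (-0.401), EIF2A (-0.393) and EIF2B3 (-0.38), with adjusted permutation p from 0.062 to 0.0902. By rho the values were -0.431, -0.416, -0.411 and -0.442 (adjusted permutation p = 0.0513, 0.0631, 0.0639 and 0.0412), so EIF2B3 passed the threshold by rho and not by r. With values and score centred on their slide, EIF4E and EIF3M, another EIF3 subunit, were called negative (adjusted permutation p = 0.0186 and 0.0178). Under quantile normalisation EIF1B, EIF4E and EIF2B3 did, at r = -0.544, -0.433 and -0.494 (adjusted permutation p = 0.00719, 0.045 and 0.0173), and 13 factors in all were called negative and 4 positive. There 17.3% of all genes had a negative and 14.5% a positive call. EIF4E and EIF4E3, relatives that both bind the cap, had r = -0.215 with each other over the mares, and EIF1 and EIF1B had r = 0.038. These are descriptions over mares measured on the same arrays.

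With the T cell score 17 of 43 factors had a positive and 1 a negative call, where 18.4% and 3.58% of all genes did. Of the 27 factors with a mean level above 1, 13 had a positive call, against 25% of genes above that level. The positive ones included 8 of 10 EIF3 subunits, EIF4B, EEF1G, EEF2 and EEF1A1. Of these, EIF3C, EIF3E, EIF3H, EIF3I and EEF1A1 passed by r and not by rho. By rho their adjusted permutation p was 0.0764, 0.0573, 0.0673, 0.106 and 0.15. EIF3G had the highest r, 0.707, with rho = 0.662 (permutation p = 1e-05, the smallest the resamples can give, and 8e-05, adjusted p = 0.000957 and 0.00458). It was positive on all slides, at 0.576, 0.596, 0.807 and 0.877, and r was 0.644 without the 2 farthest mares. EEF1G, the gamma subunit of the exchange factor for EEF1A, followed with r = 0.684. The negative call was EIF4E3, with r = -0.609 and rho = -0.582 (permutation p = 0.0003 and 0.00062, adjusted p = 0.00597 and 0.0129). It was negative on every slide, from -0.182 on slide 1 to -0.897 on slide 4, and r was -0.472 without the 2 farthest mares.

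The number of positive T cell calls depended on few arrays and on the scaling. Under quantile normalisation it was 8, with 1 negative, against 8.78% and 3.7% of all genes. It was 8 without progressive 16, 7 without slide 3 and 1 without slide 4. The negative call of EIF4E3 was lost without slide 3 or slide 4, which leaves 24 mares. For these subsets of arrays the share of all genes called was not counted, so the counts cannot be set against all genes. EEF1G, EIF2B5, EIF3G, EIF3K, EIF3L and EIF4B were positive and EIF4E3 negative under all 5 scalings. With the erythroid score EIF4E2 alone was called (r = 0.555 and rho = 0.347, adjusted permutation p = 0.0499 and 0.285), against 1.86% of all genes with a positive and 0.98% with a negative call.

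**Figure D3:**
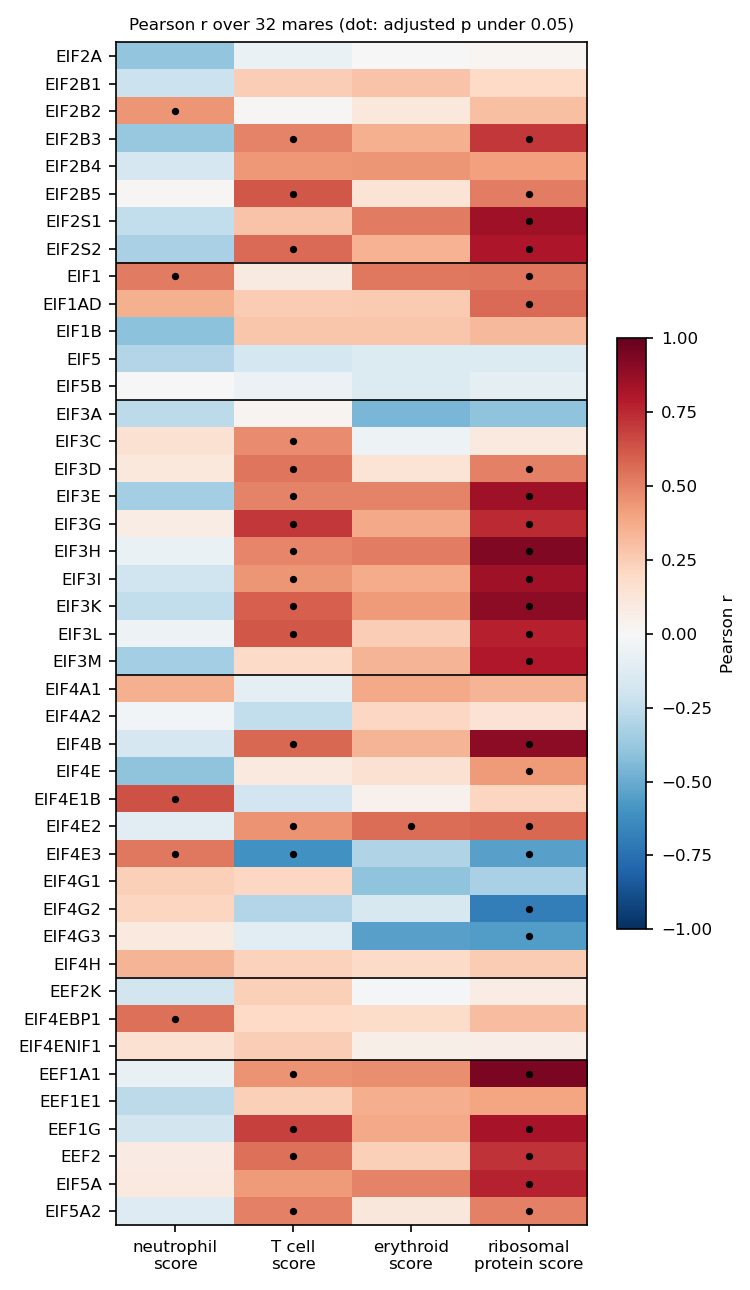
Pearson's r over 32 mares (colour, from -1 in blue to 1 in red) of each of the 43 measured factors (rows, grouped by role) with 4 scores (columns), where a dot marks an adjusted permutation p under 0.05. EIF4E3 is positive with the neutrophil score and negative with the T cell and ribosomal protein scores, while most EIF3 rows are positive in the T cell and ribosomal protein columns.

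The ribosomal protein score had the most calls, 22 positive and 3 negative, against 28.4% and 10.1% of all genes. Of the positive ones, EIF4E and EIF5A2 passed by r and not by rho (adjusted permutation p by rho = 0.0537 and 0.066). EEF1E1 passed by rho and not by r (adjusted permutation p = 0.0135 and 0.0644). Of the 27 factors with a mean level above 1, 15 were called positive, against 45.3% of the 2385 genes above that level. The highest r were those of EEF1A1 (0.939), EIF3H (0.929), EIF3K (0.897) and EIF4B (0.893), the last a helper of the helicase EIF4A. For EIF3H rho was 0.937 (permutation p = 1e-05 for both, the smallest possible, adjusted p = 8.96e-05 and 0.000118), and r was 0.876 to 0.977 on the single slides. Of the 10 EIF3 subunits 7 had an r of 0.749 or more, whereas EIF3A and EIF3C were not called.

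The negative calls were EIF4G2, EIF4G3 and EIF4E3. EIF4G2, a relative of EIF4G1 that lacks the part binding EIF4E, had r = -0.691 and rho = -0.659 (permutation p = 3e-05 and 9e-05, adjusted p = 0.000216 and 0.000658), with -0.82, -0.638, -0.739 and -0.562 on the slides. EIF4G3 had r = -0.559 (permutation p = 0.00094, adjusted p = 0.00404) and EIF4E3 r = -0.541 (permutation p = 0.00127, adjusted p = 0.0052). Both kept their call under all 5 scalings, as did 12 of the positive factors. The score was strongly related to the arrays' 75th percentile signal (r = -0.856), by which the values were divided, and the part of this in the result was not tested. Under quantile normalisation 15 factors were called positive and 3 negative, against 20.3% and 11.5% of all genes, and with the erythroid score 0 were, against 0.192% positive and 0.149% negative. There EIF3H had r = 0.821 (adjusted permutation p = 0.000209), but EEF1A1, whose probe is among the brightest on the array, had r = -0.042.

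**Figure D4:**
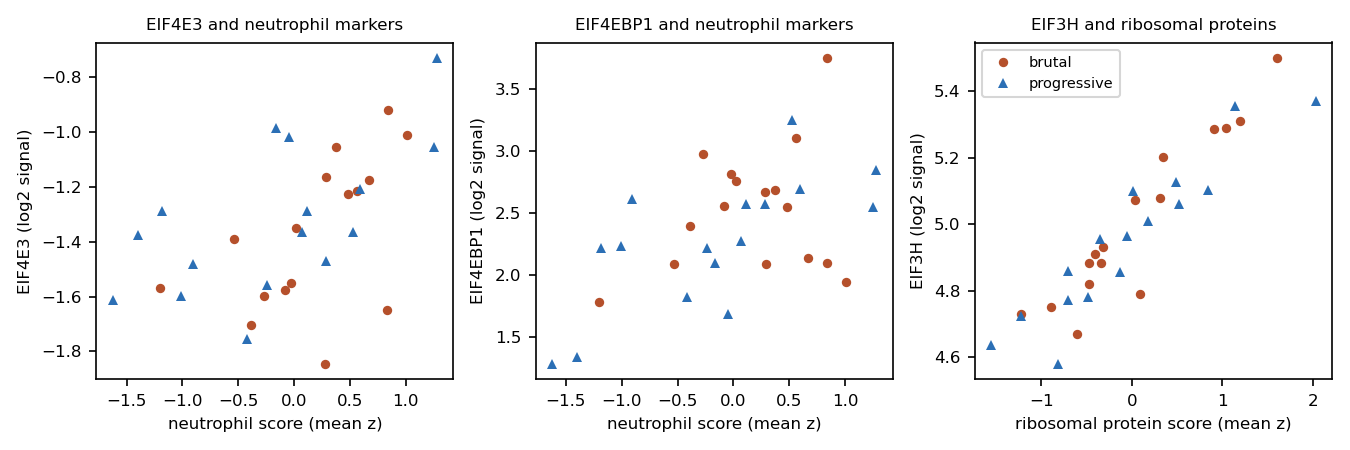
Level of EIF4E3 and EIF4EBP1 (log2 signal) against the neutrophil score, and of EIF3H against the ribosomal protein score (mean z of the marker genes), 1 point per mare, circles brutal and triangles progressive. The points rise from left to right with r = 0.53, 0.552 and 0.929, and the groups are mixed along each trend.

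There are 5 further factors that carry no such name in the files but were named through the reference table, and they are no members. EEF1D and EEF1B2, the other exchange subunits of EEF1, had r = 0.948 and 0.844 with the ribosomal protein score, and EIF1AX, a partner of EIF1, had 0.843 (adjusted permutation p = 8.96e-05 for each). EIF3B and EIF3J, a core and a loosely bound subunit of EIF3, had 0.373 and 0.397 and were not called (adjusted permutation p = 0.0805 and 0.0593). Under quantile normalisation EEF1B2 had r = 0.008. Between the weaning groups these 5 differed by -0.0841 to 0.0923 and none was called.

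Where a factor has several probes, they show how far the level stands for the whole transcript. Of 21 factors with several tested probes, 18 pairs overlapped by at least 15 bases and are not separate measurements, while 20 pairs of 15 factors did not. The separate pairs had a median r of 0.609 over the mares. EIF3H was highest with 0.985 between probes at bases 1026 and 966, EIF3A had 0.96, and EEF1A1 had 0.834 and 0.402 with probes farther upstream. The sign of the group difference was the same in 31 of all 38 pairs. Tested probe by probe, 0 of the 81 probes were called and 0 had an unadjusted p under 0.05 (limma, adjusted over 26379 probes, of which 0 were called and 728 had such a p).

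Some correlation calls depended on the probe. Adjusted over all probes, the calls of the 38 other probes were set beside that of their factor's brightest probe. How often such calls differ over all genes was not counted. With the neutrophil score 4 other probes of 3 factors differed in their call, and with the T cell score 5 of 5 factors. It was 3 of 3 with the erythroid score and 8 of 4 with the ribosomal protein score. EIF4E3 was among them: its probe at base 438, which shares under 15 bases with the brightest, had r = 0.54 with the neutrophil score (adjusted permutation p = 0.00735). With the T cell and ribosomal protein scores it had r = -0.172 and -0.205 (adjusted permutation p = 0.506 and 0.374), so its negative calls were not seen there. The brightest probe of EIF5B had r = -0.091 with the ribosomal protein score, while those at bases 5101, 2002 and 2062 had -0.639, -0.499 and -0.474 (adjusted permutation p = 0.000574, 0.0112 and 0.0178). The other probe of EIF2A had r = -0.45 with the neutrophil score (adjusted permutation p = 0.0369).

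EIF5, which makes EIF2 release its tRNA once the start codon is found, held the only negative correlations among the 38 probe pairs, and is named after its values were seen. The probe at base 3558 ran from 2.64 over 2.94 to 3.19 after brutal and from 2.76 over 2.94 to 3.18 after progressive weaning. The probe at base 1356 of another transcript model ran from 0.79 over 1.59 to 1.93 and from 0.86 over 1.57 to 1.94, and its SD over the mares was 0.279 against 0.133. Over the 32 mares these had r = -0.437 with each other, and -0.67, -0.349, -0.505 and -0.36 on slides 1 to 4. The neighbouring probe at base 1296 followed the one at 1356 (r = 0.958) and also opposed the one at 3558 (r = -0.478).

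The EIF5 probes also differed in their relation to the neutrophil score. At base 1356 r was 0.613 and rho 0.644 (permutation p = 0.00021 and 0.00011, adjusted over all probes 0.00177 and 0.00119), with 0.905, 0.224, 0.285 and 0.505 on the slides and 0.536 without the 2 farthest mares. At base 3558 r was -0.293 and rho -0.266 (permutation p = 0.104 and 0.141, adjusted 0.213 and 0.27). Whether the correlations of the probes differ from each other was not tested. So EIF5 appears without a call when its brightest probe stands for it, and with one when the other transcript model does.

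**Figure D5:**
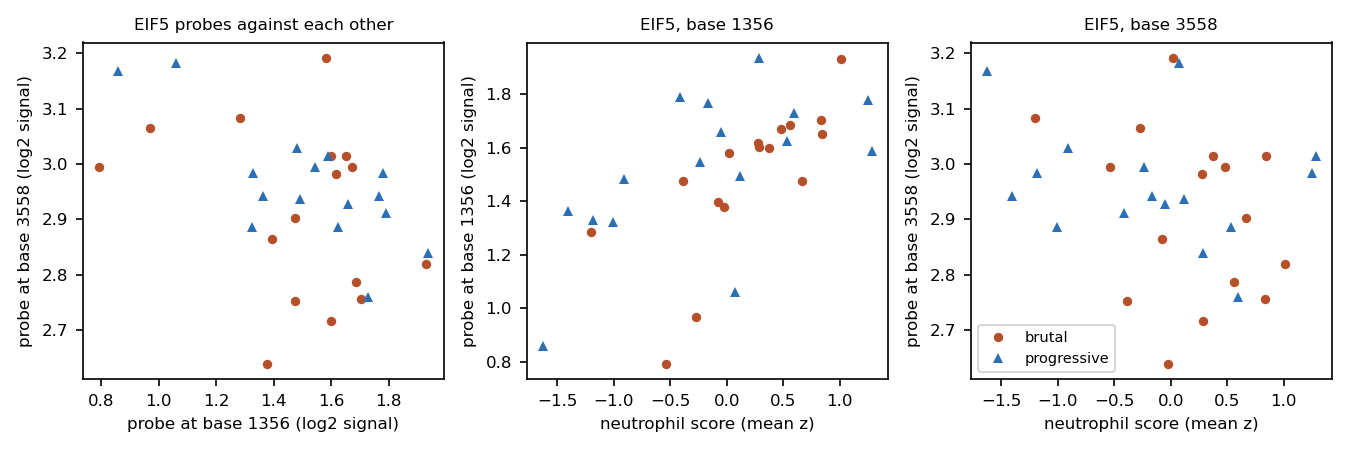
EIF5 read by probes at base 3558 and base 1356 of their transcripts, in log2 signal, against each other (left) and each against the neutrophil score (middle and right), 1 point per mare, circles brutal and triangles progressive. The left panel falls (r = -0.437), the middle one rises (r = 0.613), and the right one shows a weak fall (r = -0.293).

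The genes around the factors were counted in the same fit, and none was called there either. The counts below stand beside 58.3% of all genes that were lower, with a median of -0.0203. In the integrated stress response, which acts by phosphorylating EIF2S1, 8 of 13 measured genes were lower (median -0.0335). ATF4, the transcription factor this response translates, differed by -0.141 (SE 0.073) and EIF2AK4, its kinase for amino acid shortage, by 0.176 (SE 0.094). Of the mTOR and MNK genes that control cap binding 7 of 14 were lower, with MTOR at 0.137 (SE 0.082) and AKT1S1, an inhibitor of mTOR, at -0.189 (SE 0.118). Among other initiation, recycling and termination factors 5 of 13 were lower, and the recycling factor ABCE1 differed by 0.132 (SE 0.070) and the release factor GSPT1 by 0.0916 (SE 0.055). Of the listed partners of elongation, which include mitochondrial translation factors, 5 of 8 were lower. The mitochondrial factors MTIF3, for initiation, and TUFM, for elongation, differed by 0.0775 (SE 0.056) and -0.094 (SE 0.070). Of 74 cytosolic ribosomal proteins 55 were lower, with a median of -0.0331, and RPL28 and RPLP2 had the smallest p, at -0.112 (SE 0.095) and -0.11 (SE 0.096). No gene of the 5 lists had an unadjusted p under 0.05 by limma.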

How the data were processed

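Each deposited scanner file gives the intensity of every spot of 1 array, per the file headers read out by Agilent Feature Extraction 10.10.1.1, which also subtracted background. The authors' deposited series table holds log2 values, and the sources used here do not name their normalisation. Here the 1319 control spots and 2483 outlier spots were left out, signals were scaled to the 75th percentile of their array, and log2 values were averaged over the spots of a probe. Groups were compared with limma 3.58.1 in R 4.3.3 (lmFit, eBayes, two-sided), tested on simulated data first. Correlations used Python 3.11.15 with numpy 2.4.6, and 162 missing values were filled with the gene's mean for them. The rule for named genes takes the smallest p of each role, the 4 highest and 4 lowest r with the neutrophil score, the 4 largest SDs and 14 genes always, 21 in all. EIF4EBP2 and EIF6 are among these but were not members by the array's names and are not analysed here. EEF1G, EIF1AD, EIF2B2, EIF2B5, EIF3A, EIF3C, EIF3E, EIF3H, EIF3I, EIF3K, EIF3L, EIF3M, EIF4B, EIF4E2, EIF4G2, EIF4ENIF1, EIF5 and EIF5B were named after their values were seen. The members and lists were chosen with earlier results of these data known. The alternatives were other scalings (quantile normalisation, normexp with an offset of 50, the deposited table, the percentile over probes that every array detected), other filters on dim probes, a gene's mean probe, slide as a block, slides or arrays left out, covariates for blood composition and eBayes with trend and robust options. The probes' genome positions are not given, since their build could not be settled. The number of arrays limits the precision.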

Additional observations from a re-analysis of the deposited data

How the results depend on the processing

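No paired analysis was possible because the labels tie no brutal mare to a progressive one. A tally of 1614 values under alternatives counted 1465 that kept their direction and side of the threshold. The tally does not cover every factor, score and alternative, and the counts of calls given below moved more than it shows. No factor differed between the groups after adjustment under any alternative run. EIF1 had an unadjusted p under 0.05 without slide 1, without slide 2 and on slide 3 alone, and EIF5B with the composition covariates. The count of factors lower after progressive weaning, 27, was 17 with quantile normalisation, 16 on slide 1 alone and 14 with the composition covariates, so it has no settled direction. Correlations on a single slide are values with no test.

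Where a count below has no share of all genes beside it, it cannot be read as particular to the factors. For alternatives other than the scalings that share was not counted. Calls with the neutrophil score moved as follows. Positive ones, 5 in the report, numbered 1 without slide 1, 2 without slide 4 and 2 without the 2 farthest mares. Negative ones, 0 in the report, numbered 13 with quantile normalisation (17.3% of all genes), 8 with the percentile over detected probes (20.2%), 12 with the series table (16.3%), 1 with normexp (11.7%), 1 with a gene's mean probe, 2 with the slide as a block (EIF4E and EIF3M), 1 without progressive 16 and 3 without the 2 farthest mares. Positive T cell calls, 17 in the report, numbered 8 with quantile normalisation (8.78% of all genes), 7 with the percentile over detected probes (10.1%), 7 with the series table (6.62%), 7 without slide 3, 1 without slide 4, 8 without progressive 16 and 6 without the 2 farthest mares. The negative T cell call went to 0 without slide 3, without slide 4 and without the 2 farthest mares. The erythroid call numbered 0 with quantile normalisation, the percentile over detected probes, the series table and no filter, and 0 without slide 2, 3 or 4, progressive 16 or the 2 farthest mares. It numbered 16 positive and 2 negative with normexp (31.2% and 3.9% of all genes), 3 and 1 with the stricter filter, 4 and 1 with a gene's mean probe, 6 and 2 with the slide as a block, and 3 and 1 without slide 1. Positive calls with the ribosomal protein score, 22 in the report, numbered 13 with the series table (17.9% of all genes) and 27 with normexp (48.5%). With quantile normalisation EEF1A1 turned to r = -0.227 with the T cell score and -0.042 with the ribosomal protein score, and EIF1 to -0.386 with the latter (-0.41 with the series table). The cause of these changes was not tested.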
